A study of Mus musculus with 30 samples.

Results

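The insulin-like growth factor axis was described by 7 listed genes, the ligands Igf2 and Igf1, the receptors Igf1r, Igf2r and Insr, and the RNA-binding proteins Igf2bp2 and Igf2bp3. They were listed because Igf2 was high in only some of the lymphomas, that is, the list was chosen by the measured Igf2 levels of the lymphoma arrays, so those levels are a description here, with no test. Of the 7 genes, 6 were measured among the 19938 genes of the series, each by the probe set with 1 gene symbol and the highest mean level. Igf2bp2 was not analysed here.

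The arrays came from 6 Tg26 mice with lymphoma, 6 asymptomatic Tg26 mice and 3 FVB/N mice, the background strain, with spleen and lymph node of every mouse on an array of its own (30 arrays). Tg26 mice carry a pNL4-3 HIV-1 provirus that lacks part of gag-pol and makes no infectious virus. The transgenic mice were heterozygous, and all mice were on the FVB/N background, were untreated as far as the labels say, and were 5 to 12 months old; age and sex per mouse were not given. RNA was taken from whole tissue, so no value belongs to tumour cells alone. Mice 1 to 3 of each state formed batch A, and lymphoma and asymptomatic mice 4 to 6 formed batch B, which had no FVB/N mouse. For lymphoma mouse 4, 1 label of its spleen array gave the status code used for FVB/N, while title and description gave lymphoma, and it was kept as lymphoma. Early B precursor genes averaged 9.74 to 10.56 on all 12 lymphoma arrays, against 7.42 to 8.16 on the asymptomatic and 7.41 to 7.94 on the FVB/N arrays. Lymph nodes of asymptomatic mice 2 to 6, FVB/N mice 2 and 3 and lymphoma mouse 5, and spleens of asymptomatic mice 4 and 5, carried genes of adipose tissue, muscle, salivary gland or pancreas at 1.19 to 7.35 log2 units over the median array. The highest correlation between any pair of arrays was 0.9967, and no pair held the same values.

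The 2 ligands Igf1 and Igf2 act on the Igf1 receptor, a tyrosine kinase that signals through insulin receptor substrates to Akt and mTOR. The Igf2 receptor binds Igf2 and carries it to the lysosome, the insulin receptor also binds Igf2 in one of its splice forms, and a family of binding proteins holds both ligands outside the cell. Igf2 is imprinted, read from the paternal allele, high in fetal tissue and largely silent in most tissues of the adult mouse, while Igf1 is made in liver and, locally, by macrophages and stromal cells. All levels below are log2 values of the authors' normalization, and differences are in log2 units.

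Igf2 stood far above every control array in 3 of the 6 lymphoma mice, in both of their tissues. In lymph nodes its level was 6.30, 6.64, 11.60, 11.62, 12.67 and 7.83 in lymphoma mice 1 to 6, against 6.63, 6.87, 7.23, 7.03, 8.05 and 6.50 in asymptomatic mice 1 to 6 and 6.33, 7.05 and 6.77 in FVB/N mice 1 to 3. In spleens it was 6.17, 6.38, 10.54, 10.92, 12.78 and 5.55 in lymphoma mice 1 to 6, against 6.55, 6.40, 6.30, 5.74, 5.99 and 6.01 in asymptomatic mice and 6.32, 6.50 and 6.59 in FVB/N mice. Mice 3, 4 and 5 were the high ones in both tissues, and mouse 3 belonged to batch A while mice 4 and 5 belonged to batch B. Over the mean of the asymptomatic nodes, the nodes of mice 3, 4 and 5 were 23.4-, 23.7- and 49.2-fold higher. Over the mean of the asymptomatic spleens, the spleens of the same mice were 20.8-, 26.9- and 98.2-fold higher. The other lymphoma arrays lay between 0.6- and 1.7-fold of the asymptomatic mean, and the group ranges therefore overlapped. Group means were 9.44 ± 2.83 in lymphoma nodes, 8.72 ± 3.06 in lymphoma spleens (SD, n = 6 each), 7.05 ± 0.55 in asymptomatic nodes, 6.72 ± 0.36 in FVB/N nodes (n = 3), 6.47 ± 0.14 in FVB/N spleens and 6.17 ± 0.30 in asymptomatic spleens, and no neighbours in this order were separated beyond their ranges. The measured lymphoma minus asymptomatic difference was 2.39 in node and 2.56 in spleen. It was 1.27 and 1.28 among the mice of batch A, of which 1 had high Igf2, and 3.51 and 3.84 among those of batch B, of which 2 did.

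**Figure D1:**
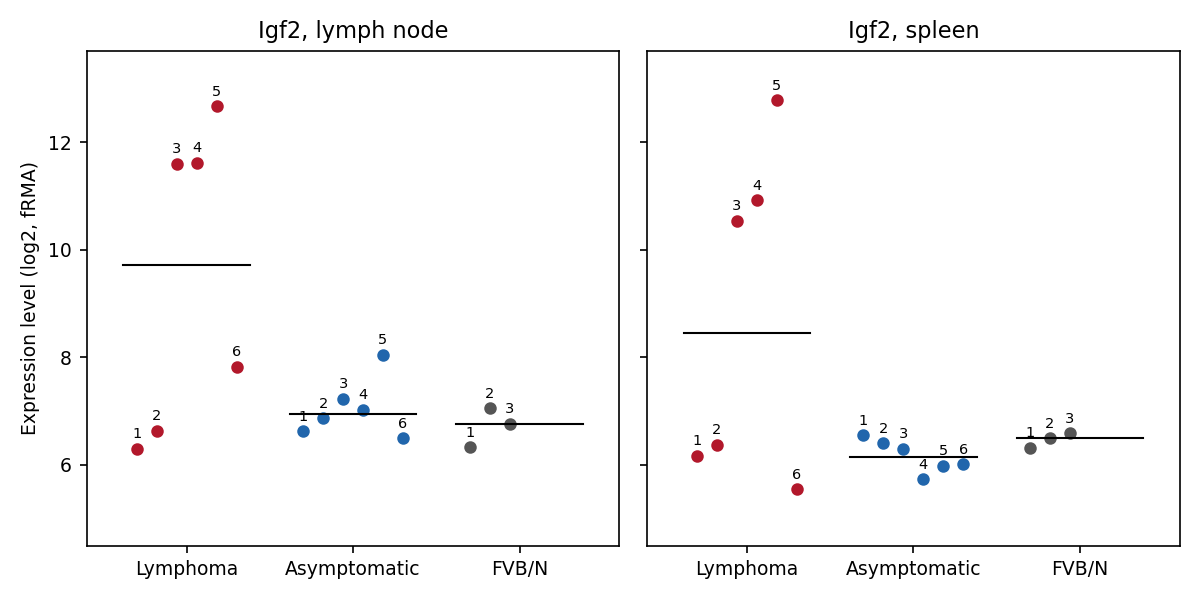
Igf2 level (log2) of each array in lymph node and spleen for lymphoma, asymptomatic and FVB/N mice; numbers are mouse numbers and lines are group medians. Lymphoma mice 3, 4 and 5 lie at 10.54 or above in both tissues, and all asymptomatic and FVB/N arrays at 8.05 or below.

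Igf2 was high in both organs of mice 3, 4 and 5 and in neither organ of the other lymphoma mice. The node minus spleen difference was 0.13, 0.27, 1.06, 0.70, -0.11 and 2.27 in mice 1 to 6. Mouse 6 differed most, with 7.83 in its node, below the highest asymptomatic node, and 5.55 in its spleen, the lowest Igf2 level of the series. The mice fell into separate clusters, so no correlation between the organs was computed for Igf2. The mean absolute difference between the organs was 0.757. Between asymptomatic and FVB/N mice the measured means of Igf2 differed by 0.34 in node and -0.30 in spleen, with overlapping arrays in both tissues. Igf2 was given no test in any comparison, because the lymphoma arrays that chose it enter the fit all comparisons share.

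Levels of other cell types were set beside these values. In lymphoma spleens of mice 1 to 6, the 10 stroma genes averaged 6.46, 6.53, 6.55, 6.54, 6.41 and 6.21, and the 8 skeletal muscle genes averaged 6.41, 6.57, 6.7, 6.66, 6.79 and 6.53. Among lymphoma spleens this muscle average was highest in mice 3, 4 and 5, and it was 6.53 to 6.7 in asymptomatic spleens. The muscle genes include Tnni2, a gene named below as most like Igf2. Tnni2 alone was 7.8, 7.4, 8.36, 8.59, 8.99 and 7.12 in lymphoma spleens 1 to 6. In nodes of mice 1 to 6 the stroma genes averaged 7.79, 6.96, 8.06, 6.27, 7.73 and 6.52, with mouse 4 lowest, and the muscle genes averaged 6.5 to 6.81. The part of stroma and muscle in the Igf2 values was not tested. The early B precursor genes averaged 9.74 to 10.35 over the same 6 spleens. Xist, the RNA that coats the inactive X chromosome of female cells, was 11.37 and 11.06 in the spleens of mice 3 and 5 and 4.88 to 5.19 in those of mice 1, 2, 4 and 6. In nodes it was 11.93 and 10.91 in mice 3 and 5 and 4.77 to 5.75 in the other lymphoma mice. Eif2s3y, a Y-linked gene, was 3.59 to 4.06 on the arrays of lymphoma mice 3 and 5 and 8.64 or above on every other array. Of the mice with high Igf2, mouse 4 thus had low Xist and high Eif2s3y, and the part of sex in the Igf2 values was not tested.

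Igf2 lies on the minus strand of mouse chromosome 7 (GRCm38.p6, chr7:142650768-142666816), and RefSeq gives it 4 transcription starts, which the single probe set does not tell apart. The 250 bases before the start at the far end and before the start nearest the coding exons are shown as the extremes of these promoters, with the GC box GGGCGG, looked for on both strands, in capitals.
Igf2 start at the far end (chr7:142666817-142667066, minus strand): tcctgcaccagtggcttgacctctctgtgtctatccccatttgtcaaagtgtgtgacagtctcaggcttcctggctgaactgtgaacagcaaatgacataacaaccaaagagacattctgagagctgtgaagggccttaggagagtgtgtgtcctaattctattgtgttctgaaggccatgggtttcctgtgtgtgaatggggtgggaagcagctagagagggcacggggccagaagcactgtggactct
Igf2 start nearest the coding exons (chr7:142657497-142657746, minus strand): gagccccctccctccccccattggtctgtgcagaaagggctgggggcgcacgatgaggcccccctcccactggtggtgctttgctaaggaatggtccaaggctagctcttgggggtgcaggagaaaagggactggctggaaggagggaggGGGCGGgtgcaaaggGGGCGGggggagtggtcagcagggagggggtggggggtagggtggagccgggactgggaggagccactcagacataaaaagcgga
The window at the far end held 1 CpG and no GC box. The window nearest the coding exons held 6 CpG and 2 GC boxes, which began 100 and 85 bases before the start. The windows between them held 10 and 22 CpG, and the second of these held 1 GC box on the opposite strand, 17 bases before the start. No Igf2 window held the TATA box TATAAA on either strand. Among all 32851 RefSeq windows of this length, 32.7% held GGGCGG and 12.4% held TATAAA, and the median window held 6 CpG. Of the other members, Igf1r had 2 GC boxes and 42 CpG in its window, Igf2r 3 and 27, and the windows of Igf1 and Igf2bp3 held no GC box.

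An intron of Igf2 holds the microRNA gene Mir483, whose mature forms are shown because its probe set did not follow Igf2. Bases 2 to 8, the seed, are in capitals, and RefSeq is the source (GRCm38.p6, minus strand).
mmu-miR-483-3p (chr7:142654932-142654952): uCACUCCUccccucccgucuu
mmu-miR-483-5p (chr7:142654968-142654989): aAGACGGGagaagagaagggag
The Mir483 probe set read 7.54, 7.55, 7.67, 7.46, 7.63 and 7.41 in lymphoma spleens 1 to 6, 7.25 to 7.74 in asymptomatic spleens and 7.46 to 7.73 in FVB/N spleens. In lymphoma nodes it read 7.27 to 7.96, with the lowest value in mouse 5, whose node had the highest Igf2 among nodes.

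The genes whose levels ran most like Igf2 were named by Pearson correlation over 18638 genes with a symbol that is neither predicted nor a clone name. These correlations describe the arrays. The high end of Igf2 in each is the 6 arrays of lymphoma mice 3, 4 and 5. These mice share state, transgene and, for 2 of them, batch. Not every gene named was highest on those arrays. Over all 30 arrays the 10 highest were Scin (0.956), Colq (0.923), Smoc1 (0.907), Ins2 (0.891), Il1r2 (0.888), Tac4 (0.888), Cnr1 (0.884), Adam3 (0.865), Cdkn2a (0.86) and Spry2 (0.838). Over the 12 lymphoma arrays they were Rab7b (0.965), Tnni2 (0.964), Cnr1 (0.96), Scin (0.952), Tac4 (0.951), Bex6 (0.942), Cdh1 (0.941), Ccdc63 (0.935), Smoc1 (0.932) and S1pr2 (0.928), and 4 genes were in both lists. Scin, an actin-severing protein, was at 5.69, 5.35, 10.37, 8.60, 10.36 and 6.08 in the nodes of lymphoma mice 1 to 6, and at 5.54 to 6.36 in all asymptomatic and FVB/N nodes. Its spleen levels were 6.05, 5.58, 8.55, 7.69, 9.92 and 5.59 in lymphoma mice and 5.57 to 6.03 in asymptomatic and FVB/N mice. The same 3 mice were thus high for Scin, with mouse 4 below mice 3 and 5 in both tissues. Cdkn2a, which encodes the tumour suppressors p16Ink4a and p19Arf, was at 6.88, 7.13, 8.70, 8.89, 7.91 and 6.93 in lymphoma spleens and at 6.54 to 7.40 in asymptomatic and FVB/N spleens. Il1r2, a decoy receptor for interleukin 1, did not separate the mice as sharply, with 8.17 in the spleen of lymphoma mouse 1 and 8.68 in that of mouse 3. Spry2 was 6.96 in the spleen of lymphoma mouse 3, against 7.17 in that of mouse 2. S1pr2 had r = 0.265 over the 30 arrays, and reached 7.89 in asymptomatic nodes against 7.66 in lymphoma nodes.

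2 of the most similar genes neighbour Igf2 on chromosome 7. Ins2, one of the mouse insulin genes, lies 11.8 kb from Igf2, and Tnni2, a troponin gene of fast skeletal muscle, lies 206.4 kb from it on the other side. Against the asymptomatic mean, Ins2 differed by 0.07, -0.03, 0.90, 0.58, 1.21 and 0.00 in the nodes of lymphoma mice 1 to 6 and by -0.10, -0.08, 0.54, 0.57, 1.63 and 0.12 in their spleens. Tnni2 differed by -0.05, -0.23, 1.00, 0.98, 1.41 and -0.11 in nodes and by 0.05, -0.35, 0.61, 0.84, 1.24 and -0.63 in spleens. Among lymphoma mice both were highest in mice 3, 4 and 5 in each organ, at smaller sizes than Igf2. Tnni2 reached the same levels in nodes without high Igf2: it was 9.30 in the node of asymptomatic mouse 3, against 9.30 in that of lymphoma mouse 5, and 8.88 in the node of FVB/N mouse 2, against 8.88 in that of lymphoma mouse 3. The muscle genes, Tnni2 among them, averaged 9.44 and 9.45 in those asymptomatic and FVB/N nodes. The part of muscle in the Tnni2 values was not tested. Other genes of the interval ran differently. Mrpl23, a mitochondrial ribosomal protein gene 110 kb from Igf2, was up by 1.26 to 1.82 in both organs of mice 1, 2 and 3 and by -0.25 to 0.58 in those of mice 4, 5 and 6, a division by batch. Tnnt3, another muscle troponin 134.6 kb away, differed by -1.10 to -0.67 in nodes and by -0.38 to 0.09 in spleens. Of the 25 genes measured within 500 kb of Igf2, Ins2 and Tnni2 were the ones with a correlation with Igf2 over 0.9 across the 12 lymphoma arrays, and the next was Ctsd with 0.355; these genes were looked at after Igf2 values were known.

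**Figure D2:**
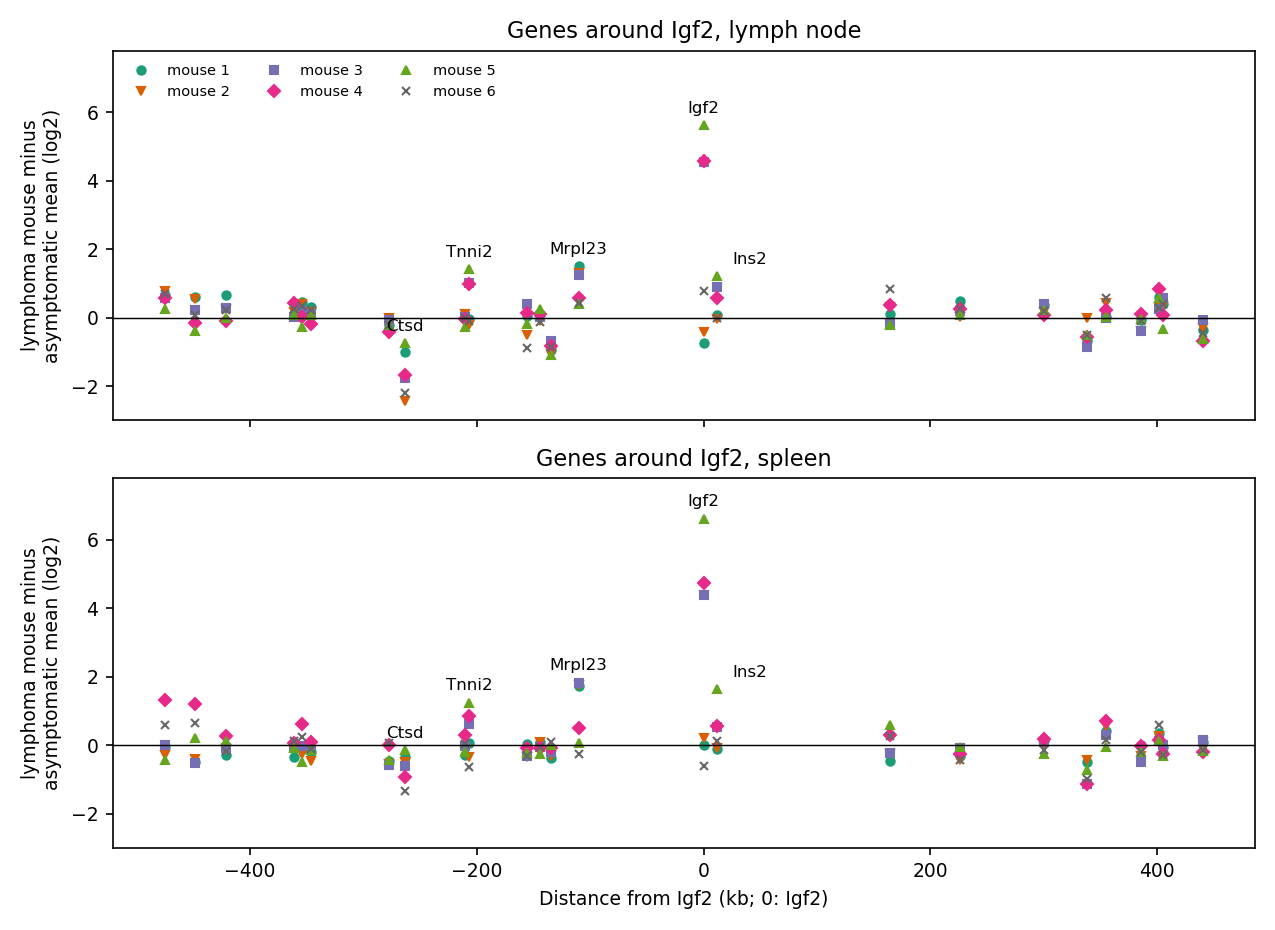
Level of each gene measured within 500 kb of Igf2 in each lymphoma mouse, minus the asymptomatic mean of that tissue (log2), by distance from Igf2. Mir483, which lies within Igf2, is not drawn. Igf2 reaches 5.62 in nodes and 6.62 in spleens, and Ins2 and Tnni2 reach between 1.21 and 1.63 in mouse 5.

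The other ligand, Igf1, was lower in lymphoma mice than in asymptomatic mice in both tissues, and higher in asymptomatic than in FVB/N spleens. In nodes Igf1 was 6.89, 6.10, 6.27, 6.18, 7.52 and 6.34 in lymphoma mice, 7.29, 10.17, 10.02, 9.99, 10.02 and 9.75 in asymptomatic mice and 7.58, 9.33 and 9.97 in FVB/N mice. In spleens it was 7.47, 8.29, 7.70, 6.05, 6.41 and 6.55 in lymphoma mice, 8.11, 8.22, 8.15, 8.03, 8.23 and 7.89 in asymptomatic mice and 6.39, 6.35 and 6.33 in FVB/N mice. Every asymptomatic spleen was above every FVB/N spleen, and the lymphoma spleens of batch A were all above those of batch B. The fitted difference between lymphoma and asymptomatic mice was -1.62 ± 0.37 in node (limma adjusted p = 0.00227) and -1.09 ± 0.34 in spleen (adjusted p = 0.0283). Between asymptomatic and FVB/N mice it was 1.63 ± 0.33 in spleen (adjusted p = 0.0221) and 0.76 ± 0.36 in node (adjusted p = 0.298). Within batch A, the spleens of asymptomatic mice differed from those of FVB/N mice by 1.76 (adjusted p = 0.00176). Lymphoma against FVB/N, which uses the same FVB/N arrays, gave 0.54 ± 0.41 in spleen and -0.87 ± 0.45 in node, and neither passed (adjusted p = 0.485 and 0.22). Within batch A both passed by limma, at 0.77 in spleen (adjusted p = 0.0232) and -1.45 in node (adjusted p = 0.00153). The measured means differed by 0.72 in spleen, with overlapping arrays, and by -2.41 in node, without overlap.

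Macrophage and stroma genes were examined in the same groups. The 17 macrophage genes averaged 8.08, 8.54, 7.90, 6.48, 7.09 and 7.33 in lymphoma spleens, 7.85 to 8.30 in asymptomatic spleens and 6.89 to 6.96 in FVB/N spleens. Of these genes, 12 were above all FVB/N spleens in every asymptomatic spleen, against 3.99% of all genes. There 7 of the 17 were called higher, against 0.306% of all genes. In lymphoma against asymptomatic spleens 2 of the 17 were called lower, where 7.25% of all genes were. In nodes the same genes averaged 6.43 to 7.42 in lymphoma mice, 6.91 in asymptomatic mouse 1 and 8.70 to 9.26 in the other asymptomatic mice, and 6.83, 8.19 and 8.45 in FVB/N mice. In lymphoma nodes the 10 stroma genes averaged 6.27 to 8.06, in asymptomatic nodes 7.96 in mouse 1 and 8.69 to 9.37 in the other mice, and in FVB/N nodes 7.28 in mouse 1 and 9.27 and 9.38 in mice 2 and 3. The nodes of asymptomatic mouse 1 and FVB/N mouse 1, with the lowest stroma and macrophage levels of their groups, also had the lowest Igf1. The node of asymptomatic mouse 6 had Igf1 at 9.75 with adipose genes at 6.83, against 8.85 to 10.63 in the nodes of asymptomatic mice 2 to 5. That node of mouse 6 carried pancreas genes at 7.35 over the median array. Without the arrays that carried genes of neighbouring tissue, a setting chosen after seeing the data, the node difference between lymphoma and asymptomatic mice was -0.99 (adjusted p = 0.147). In whole tissue RNA, fewer cells of a type and less RNA per cell cannot be told apart. The part of macrophages, stroma, adipose tissue and pancreas in the Igf1 values was not tested. The spleen call against asymptomatic mice was lost without lymphoma mouse 1 (-0.88, adjusted p = 0.175) and without surrogate variables (-1.03, adjusted p = 0.11), and the call against FVB/N was lost without FVB/N mouse 2 (adjusted p = 0.0657), FVB/N mouse 3 (0.141) or asymptomatic mouse 3 (0.0562), and without surrogate variables (0.303). The node call was lost without asymptomatic mouse 4 (-1.06, adjusted p = 0.0664). Within batches A and B the spleen difference was -0.98 and -1.38 (limma adjusted p = 0.00691 and 0.00459). The node difference was -1.73 and -3 in these batches (limma adjusted p = 0.000235 and 1.81e-05). Measured means of lymphoma and asymptomatic mice differed by -1.03 in spleen and -2.99 in node, with overlapping arrays in each. Same-numbered lymphoma and asymptomatic spleens had correlated deviations from the group means, which cannot be told apart from a shared batch. With the mouse number as a block, where 21.7% of all genes were called in either direction, the Igf1 spleen difference was -1.03 and was not called (adjusted p = 0.0843).

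**Figure D3:**
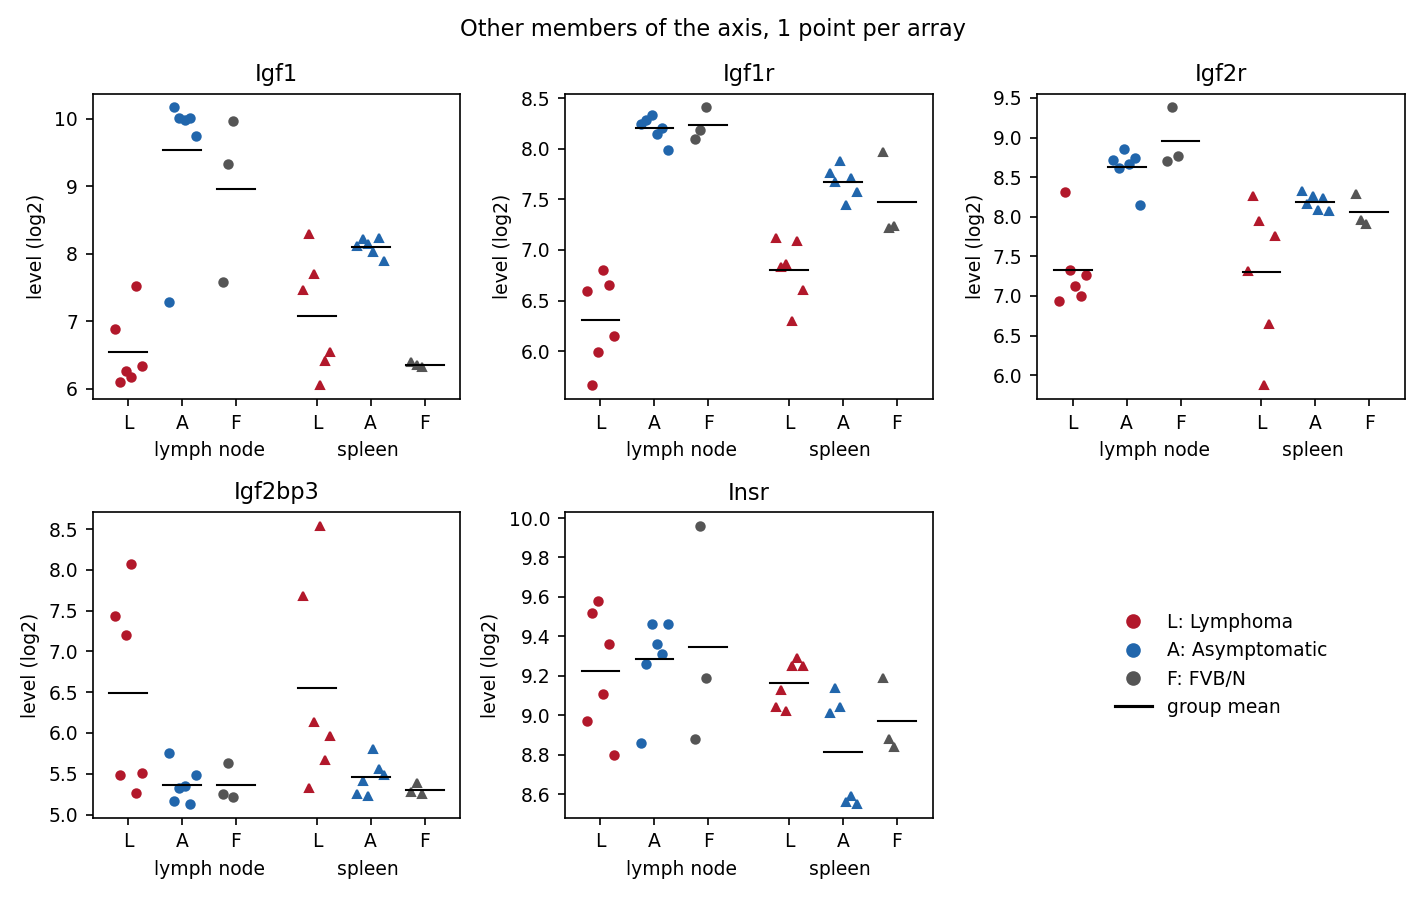
Level (log2) of Igf1, Igf1r, Igf2r, Igf2bp3 and Insr on every array by tissue for lymphoma (L), asymptomatic (A) and FVB/N (F) mice, with the group mean as a line. Igf1r of all 12 lymphoma arrays is at 7.12 or below, and all 18 other arrays are at 7.22 or above.

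Both IGF receptors were lower in lymphoma. Igf1r, the signalling receptor, was 6.59, 5.66, 5.99, 6.80, 6.65 and 6.15 in the nodes of lymphoma mice, 8.25, 8.29, 8.33, 8.15, 8.21 and 7.99 in asymptomatic nodes and 8.10, 8.19 and 8.41 in FVB/N nodes. In spleens it was 7.12, 6.83, 6.86, 6.30, 7.09 and 6.60 in lymphoma mice, 7.76, 7.67, 7.88, 7.44, 7.71 and 7.57 in asymptomatic mice and 7.97, 7.22 and 7.24 in FVB/N mice. The lymphoma arrays did not overlap the asymptomatic or FVB/N arrays of their tissue. The share of all genes that separate lymphoma arrays in this way is not given, here or for the genes below. Nothing particular to a gene is therefore read from such a separation. The mean of 9 T lineage genes was also lower on every lymphoma array: it was 6.32 to 7.81 in lymphoma nodes, 8.82 to 10.65 in asymptomatic nodes and 9.26 to 10.88 in FVB/N nodes. Its spleen level was 6.06 to 7.34 in lymphoma mice, 9.72 to 9.91 in asymptomatic mice and 9.74 to 9.77 in FVB/N mice. The part of T cells in the Igf1r and Igf2r values was not tested. Against asymptomatic mice the fitted difference was -1.61 ± 0.20 in node (adjusted p = 1.52e-06) and -0.65 ± 0.18 in spleen (adjusted p = 0.0125), and it was negative within each batch in both tissues (-2.12 and -1.40 in nodes, -0.90 and -0.69 in spleens of batches A and B). Against FVB/N it was -1.43 ± 0.23 in node (adjusted p = 0.000108) and -0.37 ± 0.22 in spleen (adjusted p = 0.325). In spleen the call against asymptomatic mice was lost without lymphoma mouse 1 (-0.59, adjusted p = 0.0591) and without the arrays with neighbouring tissue (-0.63, adjusted p = 0.0589), and without lymphoma mouse 5 the difference was -1.0 (adjusted p = 0.000231). The larger difference in node than in spleen was -0.96 ± 0.24 and did not pass (adjusted p = 0.0721). With the mouse as a block, which pairs the organs of each animal, it was -1.02 ± 0.23 and passed (adjusted p = 0.0192), in a fit that called 5.91% of all genes.

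Igf2r, the receptor that clears Igf2, was 6.94, 8.31, 7.33, 7.12, 7.0 and 7.26 in the nodes of lymphoma mice, 8.72, 8.61, 8.85, 8.67, 8.74 and 8.15 in asymptomatic nodes and 8.70, 9.38 and 8.77 in FVB/N nodes. In spleens it was 7.31, 8.26, 7.95, 5.87, 6.64 and 7.76 in lymphoma mice, 8.33, 8.16, 8.26, 8.08, 8.24 and 8.07 in asymptomatic mice and 8.29, 7.96 and 7.91 in FVB/N mice. Mice 4 and 5 had the lowest spleen levels, and their spleens also had the lowest macrophage levels of the group (6.48 and 7.09), whose part was not tested, while mouse 2 was within the range of the asymptomatic group in both tissues. The fitted difference against asymptomatic mice was -1.42 ± 0.24 in node (adjusted p = 8.41e-05) and -1.16 ± 0.21 in spleen (adjusted p = 0.000409). Against FVB/N it was -1.54 ± 0.28 in node (adjusted p = 0.000384) and -1.01 ± 0.26 in spleen (adjusted p = 0.0112). The spleen differences rested on batch B and mouse 5: within batch A they were -0.18 (adjusted p = 0.737) against asymptomatic and 0.00 (adjusted p = 0.994) against FVB/N, and without mouse 5 they were -0.33 (adjusted p = 0.297) and -0.19 (adjusted p = 0.662). The node call against FVB/N was also lost without mouse 5 (-0.81, adjusted p = 0.0558), and the node difference against asymptomatic mice was -0.94 within batch A (adjusted p = 0.0654). Without lymphoma mouse 1, 3 or 5 that node difference was -0.92, -0.78 or -0.91, and it stayed called. The spleen difference against asymptomatic mice was -0.60 without mouse 3 (adjusted p = 0.041). The spleen call against FVB/N was also lost without lymphoma mouse 1 (adjusted p = 0.0848), 2 (0.286), 3 (0.278) or 6 (0.0529) and without FVB/N mouse 1 (0.0738).

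Insr, the insulin receptor, had the highest mean level of the measured members and passed the test in neither tissue. It was 8.80 to 9.58 in lymphoma nodes, 8.86 to 9.46 in asymptomatic nodes and 8.88 to 9.96 in FVB/N nodes. In spleens it was 9.04, 9.13, 9.02, 9.25, 9.29 and 9.25 in lymphoma mice, 9.01, 9.14, 9.04, 8.56, 8.59 and 8.55 in asymptomatic mice and 9.19, 8.88 and 8.84 in FVB/N mice. The lymphoma spleens of batch B were above the asymptomatic spleens of batch B, and those of batch A were not apart. The fitted difference against asymptomatic mice was 0.39 ± 0.19 in node (adjusted p = 0.145) and 0.40 ± 0.17 in spleen (adjusted p = 0.12). In spleen it was -0.06 within batch A (adjusted p = 0.842) and 0.75 within batch B (adjusted p = 0.00446). The second probe set of Insr gave measured lymphoma minus asymptomatic differences of 0.36 in spleen and -0.06 in node, against 0.35 and -0.06 for the one used.

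Igf2bp3, an RNA-binding protein of fetal tissues and tumours that binds Igf2 mRNA among others, was high in some lymphomas, but not in the same set as Igf2. In nodes it was 7.43, 5.48, 7.20, 8.07, 5.27 and 5.51 in lymphoma mice, against 5.13 to 5.75 in asymptomatic mice and 5.22 to 5.63 in FVB/N mice. In spleens it was 7.68, 5.33, 6.14, 8.54, 5.67 and 5.96 in lymphoma mice, against 5.23 to 5.80 in asymptomatic mice and 5.25 to 5.39 in FVB/N mice. Mice 1 and 4 were high in both organs and mouse 3 mainly in the node. Mouse 5, with the highest Igf2, had Igf2bp3 at the level of the asymptomatic mice, and mouse 1, with high Igf2bp3, had Igf2 at their level. The group difference did not pass in node (1.22 ± 0.50, adjusted p = 0.0845) or spleen (0.61 ± 0.45, adjusted p = 0.427). With the mouse number as a block the spleen difference was 1.10 and was called (adjusted p = 0.0333).

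Of the 5 members tested in lymphoma against asymptomatic mice, 0 were higher and 3 were lower in each tissue, the same 3 genes (Igf1, Igf1r and Igf2r). Over all genes, 8.58% were called higher and 7.25% lower in spleen, and 11.6% higher and 12.5% lower in node. The median fitted difference of the 5 genes was -0.65 in spleen and -1.42 in node, beside -0.03 and -0.02 over all genes. Against FVB/N, 1 of 5 was called in spleen (Igf2r) and 2 of 5 in node (Igf1r and Igf2r), where 12.3% and 16.6% of all genes were called in either direction. Between asymptomatic and FVB/N mice, 1 of 5 members was called higher and 0 lower in spleen, where 0.306% of all genes were higher and 0.311% lower. In node 0 of 5 were called by limma (1 at an unadjusted p under 0.05), where 1.34% of all genes were higher and 0.592% lower.

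**Figure D4:**
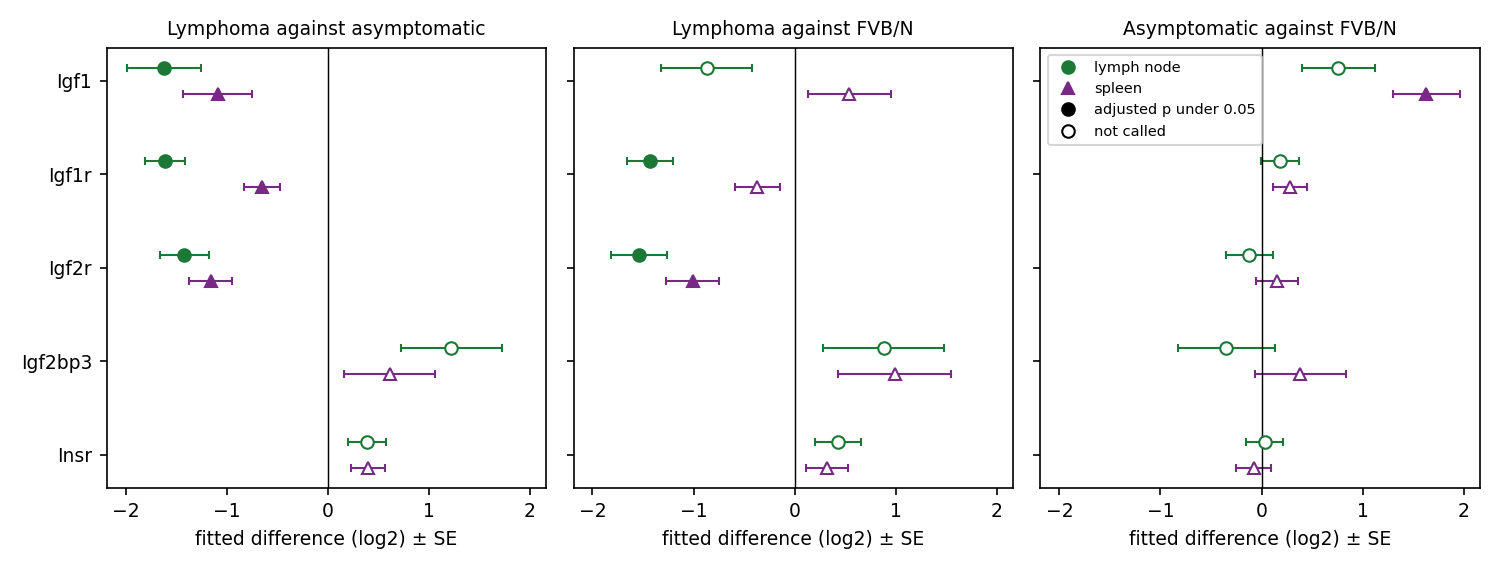
Fitted difference (log2, with SE) of the 5 tested members in 3 comparisons and both tissues; filled symbols passed an adjusted p of 0.05. Against asymptomatic mice Igf1, Igf1r and Igf2r lie at -0.65 or below in both tissues, and Igf2bp3 and Insr lie above 0 without passing.

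None of the 5 tested members was called between lymph node and spleen in lymphoma, asymptomatic or FVB/N mice, where 0.0552%, 5.62% and 4.27% of all genes were called by limma (1, 1 and 3 members had an unadjusted p under 0.05). With the mouse as a block, 2 of 5 members were higher in asymptomatic nodes than in asymptomatic spleens, where 19.8% of all genes were called: Igf1 by 1.44 ± 0.42 (adjusted p = 0.0232) and Igf1r by 0.53 ± 0.16 (adjusted p = 0.0328). In FVB/N mice 1 of 5 passed with the block (Igf1, 2.6 ± 0.59, adjusted p = 0.0126), where 8.04% of all genes were called. In lymphoma mice 0 of 5 members and 0% of all genes were called by limma with the block (1 member at an unadjusted p under 0.05). The measured node minus spleen difference of Igf2 was 0.89 in asymptomatic and 0.25 in FVB/N mice. The nodes of asymptomatic mice 2 to 6 and FVB/N mice 2 and 3, and the spleens of asymptomatic mice 4 and 5, carried genes of neighbouring tissue, whose part was not tested. For the difference between tissues in the lymphoma change, 0.572% of all genes and 0 of 5 members were called.

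Whether spleen and node of a lymphoma mouse rank alike was examined for the 5 members other than Igf2 by permuting all 720 pairings of the 6 mice (exact, two-sided), with p adjusted over the 5 relations. Igf2bp3 agreed between the organs (Pearson r = 0.886, exact p = 0.00417, adjusted p = 0.0208; Spearman rho = 0.943, exact p = 0.0167, adjusted p = 0.0833). Centred within batch its r was 0.94, and without mice 1 and 4, the ones farthest from the median spleen level, it was 0.687 over the other 4 mice. For Igf2r r was 0.628 (exact permutation p = 0.178, adjusted p = 0.444; rho = 0.771, p = 0.103), with 0.503 centred within batch. Igf1 (r = -0.309, exact permutation p = 0.558), Insr (r = -0.319, p = 0.501) and Igf1r (r = -0.0978, p = 0.839) gave no sign of agreement that passed, with rho of -0.371, -0.314 and -0.0857. The mean absolute difference between the organs was 0.943 for Igf1, 0.661 for Igf1r, 0.526 for Igf2r, 0.464 for Igf2bp3 and 0.279 for Insr.

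**Figure D5:**
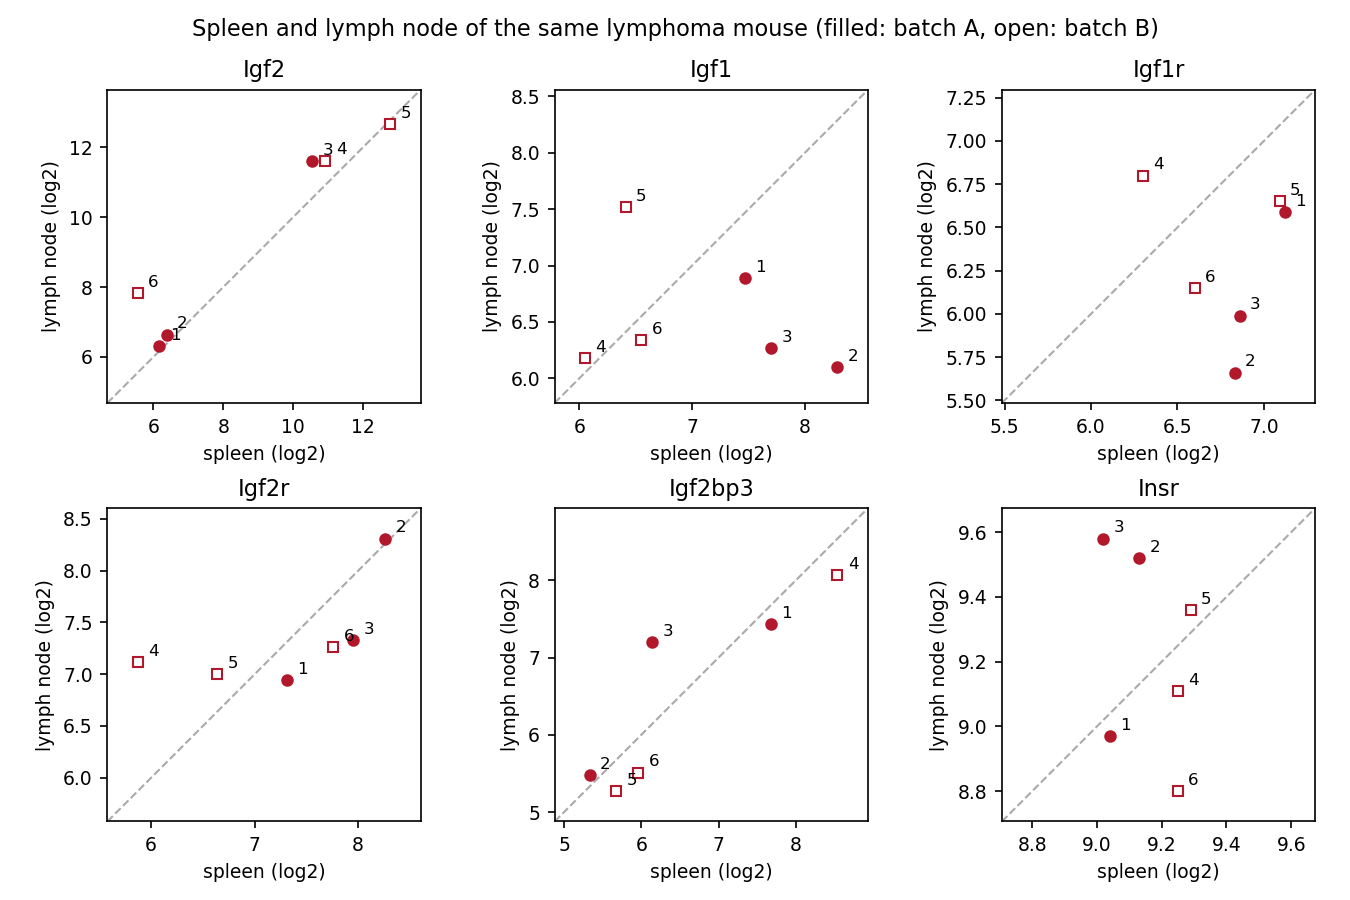
Lymph node level against spleen level (log2) of each lymphoma mouse for the 6 measured members, with mouse numbers, filled circles for batch A, open squares for batch B and the line of equal levels. Igf2 of mice 3, 4 and 5 lies at the upper end on both axes, and Igf2bp3 of mice 1 and 4 does.

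Downstream of the receptors, the 22 measured genes of insulin and IGF signalling held calls in both directions. In lymphoma against asymptomatic mice, 4 were higher and 1 lower in spleen, and 4 were higher and 2 lower in node, with medians of 0.00 and -0.02. Here and in the lists that follow, the shares over all genes in these comparisons were the 8.58% higher and 7.25% lower in spleen and 11.6% higher and 12.5% lower in node given above, and nothing particular to a list is read from its count. With the mouse number as a block, where 21.7% of all genes were called in either direction, 4 of the 22 genes were higher and 3 lower in spleen. Mtor, the kinase of the growth-control complexes, rose by 1.68 ± 0.18 in spleen (adjusted p = 7.78e-07) and 1.53 ± 0.20 in node (adjusted p = 5.69e-06). Akt1, the kinase between the receptors and mTOR, rose by 0.55 ± 0.10 in spleen (adjusted p = 0.000204) and 0.73 ± 0.11 in node (adjusted p = 1.39e-05). Mtor was at 9.77 to 10.17 in lymphoma spleens against 8.29 to 8.70 in asymptomatic spleens, and for both genes the lymphoma and asymptomatic arrays did not overlap in either tissue. Ptpn1, a phosphatase that acts on the receptors, was lower in both tissues (-0.58 ± 0.14 in spleen, -0.43 ± 0.16 in node), with overlapping arrays in each. Its node value was close to the threshold (limma adjusted p = 0.0494), and no alternatives are given for it. The spleen call was lost without asymptomatic mouse 4 (adjusted p = 0.0535) or lymphoma mouse 2 (0.0569). Akt2 was lower in node (-0.48 ± 0.10). Irs1, the docking protein of the receptors, was 7.85, 7.56, 7.40, 7.44, 6.28 and 8.04 in lymphoma spleens, 5.20 to 6.03 in asymptomatic spleens and 5.56 to 5.60 in FVB/N spleens. Grb10, an imprinted adaptor that restrains these receptors, was 8.82, 7.98, 7.57, 6.87, 6.44 and 8.08 in lymphoma spleens, 5.81 to 6.03 in asymptomatic spleens and 5.49 to 5.93 in FVB/N spleens. All lymphoma spleens were above all others for both genes, and mouse 5, with the highest Igf2, was the lowest of them. The fitted spleen difference ran from 0.81 to 1.85 for Irs1, lowest without lymphoma mouse 2 (adjusted p = 0.0917), lost also without mouse 1 (adjusted p = 0.0897) and highest without mouse 5, and from 0.81 to 1.94 for Grb10, highest without mouse 5. In node the fitted difference was 0.74 ± 0.27 for Irs1 (limma adjusted p = 0.0481) and 1.33 ± 0.30 for Grb10 (adjusted p = 0.00169). The measured means differed by 0.23 and 0.64, less than the fitted values, and the arrays overlapped for both genes. Within batch B the fitted differences were -0.60 (adjusted p = 0.114) and -0.20 (adjusted p = 0.591). The node call of Irs1 was lost in 13 of 22 alternatives, and its difference ran from 0.32 without lymphoma mouse 1 to 1.48 without lymphoma mouse 5; that of Grb10 ran from 0.81 to 2.09 without the same mice. In asymptomatic against FVB/N spleens, Irs2 was the 1 gene of the list called (-1.02 ± 0.23, adjusted p = 0.0394), a call lost in 15 of 19 alternatives (adjusted p up to 0.557, without FVB/N mouse 3), and in node none was (5 at an unadjusted p under 0.05 by limma).

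Among the 12 IGF binding proteins and their processing genes, none was higher in lymphoma than in asymptomatic mice, while 2 were lower in spleen and 5 in node (medians -0.21 and -0.37). Stc2, a secreted inhibitor of the protease that frees IGF from its binding proteins, was lower in both tissues (-0.60 ± 0.15 in spleen, adjusted p = 0.00693; -1.28 ± 0.17 in node, adjusted p = 4.05e-06), as was its relative Stc1 (-1.09 ± 0.24 and -0.78 ± 0.26). The spleen call of Stc2 was lost without lymphoma mouse 1 (-0.49, adjusted p = 0.083). In node Igfbp4 (-1.41 ± 0.21), Igfbp7 (-1.78 ± 0.59) and Igfbp5 (-1.02 ± 0.36) were lower too. The node call of Stc1 was lost in 13 of 22 alternatives, with a difference of -0.25 without asymptomatic mouse 4 (adjusted p = 0.598). Without the same mouse Igfbp7 gave -0.63 (adjusted p = 0.571) and Igfbp5 -0.61 (adjusted p = 0.387), calls lost in 9 and 5 of 23 alternatives, and without lymphoma mouse 3 Igfbp4 gave -0.93. Without the arrays that carried neighbouring tissue, Igfbp4 gave -1.25 (adjusted p = 0.0133) and Igfbp7 -0.72 (adjusted p = 0.712). Igfbp3 was 8.60, 5.75, 7.62, 6.62, 8.90 and 6.67 in lymphoma nodes, 7.02 and 9.18 to 9.71 in the node of asymptomatic mouse 1 and those of mice 2 to 6, and 6.88, 9.59 and 10.24 in FVB/N nodes, and did not pass (-0.20 ± 0.49, adjusted p = 0.832). In asymptomatic against FVB/N mice no gene of the list was called in either tissue (0 and 0 at an unadjusted p under 0.05 by limma).

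Of 16 listed neighbours in the imprinted interval around Igf2, 14 were measured, and H19 had no value here. Of the 14 genes, 2 were higher and 2 lower in lymphoma spleens than in asymptomatic spleens, and 4 higher and 1 lower in nodes (medians -0.04 and 0.15). Ins2 rose by 1.19 ± 0.14 in the fit (adjusted p = 1.74e-06) in spleen and 0.84 ± 0.15 (adjusted p = 0.000248) in node, while the measured means differed by 0.45 and 0.46. Within batch A its differences were -0.12 in spleen (adjusted p = 0.539) and 0.01 in node (adjusted p = 0.971), and without the arrays with neighbouring tissue they were 0.08 (adjusted p = 0.876) and -0.02 (adjusted p = 0.985). Without lymphoma mouse 5 they were 0.10 (adjusted p = 0.626) and 0.14 (adjusted p = 0.574), without mouse 3 0.58 and 0.13 (adjusted p = 0.0118 and 0.673), and without asymptomatic mouse 6 0.78 and 0.40 (adjusted p = 0.000422 and 0.109). With the mouse number as a block the spleen difference of Ins2 was 0.45 and was not called (limma adjusted p = 0.128). In that fit 2 genes of the list were higher and 1 lower in spleen, where 21.7% of all genes were called in either direction. Mrpl23 rose (0.77 ± 0.25 in spleen, 0.98 ± 0.28 in node), with 0.40 in spleen without lymphoma mouse 2 (adjusted p = 0.438) and 0.68 in node without asymptomatic mouse 4 (adjusted p = 0.144). Tspan32, a tetraspanin of blood cells, fell by 0.62 ± 0.16 in spleen and 0.99 ± 0.17 in node, with -0.39 in spleen without lymphoma mouse 3 (adjusted p = 0.0892). Cdkn1c, an inhibitor of the cell cycle, was at -0.38 ± 0.13 in spleen, close to the threshold (adjusted p = 0.0492), and the call was lost in 22 of 23 alternatives, the mouse number as a block among them (-0.22, adjusted p = 0.382). In node Tssc4 (0.48 ± 0.15) and Slc22a18 (0.34 ± 0.12) were called higher, and these calls were lost in 6 of 22 and 18 of 22 alternatives. In asymptomatic against FVB/N mice Tspan32 was lower in node (-0.69 ± 0.16, adjusted p = 0.0309), the 1 call of this list, lost in 14 of 19 alternatives (adjusted p up to 0.52).

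The imprinted gene network is known for high levels in fetal and young tissues. Of its 20 listed genes 17 were measured, H19 not among them. Of the 17, 1 was higher and 1 lower in lymphoma spleens (Grb10 and Cdkn1c). In nodes 1 was higher and 6 lower, and the medians were -0.13 in spleen and -0.27 in node. The calls with the smallest adjusted p in node besides Grb10 were Slc38a4 (-0.63 ± 0.12), Sgce (-1.04 ± 0.20), Ndn (-0.81 ± 0.19) and Meg3 (-0.49 ± 0.15). The Meg3 call was lost in 9 of 22 alternatives, and Ndn was -0.57 without asymptomatic mouse 4 (adjusted p = 0.0943). Without the arrays with neighbouring tissue Ndn gave -0.31 (adjusted p = 0.591) and Slc38a4 -0.70 (adjusted p = 0.0193). Of 8 genes of the Lin28 and fetal RNA-binding programme, Arid3a was higher in both tissues (0.38 ± 0.13 in spleen, 0.65 ± 0.14 in node), Dicer1 was higher in node (0.43 ± 0.13) and Afp was lower in spleen (-0.95 ± 0.17). The spleen value of Arid3a was close to the threshold (adjusted p = 0.0493); its call was lost in 17 of 23 alternatives and its sign turned in 1, with 0.01 without lymphoma mouse 5 and 0.16 with the mouse number as a block (adjusted p = 0.491). In node Arid3a was 0.33 without lymphoma mouse 3 (adjusted p = 0.143), 0.40 without mouse 5 (adjusted p = 0.124) and 0.43 without mouse 4, and the Dicer1 call was lost in 8 of 23 alternatives. Lin28b, which blocks let-7 maturation in fetal cells, was at 4.82 to 5.34 on the lymphoma arrays, 4.60 to 5.23 on the asymptomatic arrays and 4.83 to 5.19 on the FVB/N arrays. Afp was also the 1 gene of the list higher in asymptomatic than in FVB/N spleens (0.81 ± 0.17, adjusted p = 0.0305), a call lost in 10 of 18 alternatives.

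Of 7 genes of growth hormone signalling to Igf1, Socs2 was higher (0.84 ± 0.26, adjusted p = 0.026) and Stat5b lower (-0.27 ± 0.08, adjusted p = 0.0312) in lymphoma spleens, and Stat5b (-0.42 ± 0.09), Ghr (-0.99 ± 0.25) and Stat5a (-0.35 ± 0.12) were lower in nodes. Socs2, a feedback inhibitor of cytokine receptors, was 11.45, 11.26, 10.35, 9.58, 8.61 and 11.56 in lymphoma spleens, 7.89 to 8.28 in asymptomatic spleens and 7.91 to 8.08 in FVB/N spleens. All lymphoma spleens were above the others, with mouse 5 lowest. Their mean was 10.47, against 8.09 in asymptomatic spleens, a measured difference of 2.38, larger than the fitted 0.84. The fitted value ran from 0.61 without lymphoma mouse 1 (adjusted p = 0.0997) to 2.96 without lymphoma mouse 5, and was 2.38 with the mouse number as a block. Ghr, the growth hormone receptor, was 5.08 to 6.26 in lymphoma nodes, 5.73 in the node of asymptomatic mouse 1 and 7.39 to 9.49 in those of mice 2 to 6, and 5.40, 9.86 and 7.40 in FVB/N nodes. Without the arrays that carried neighbouring tissue its node difference was 0.10 (adjusted p = 0.876), and it was -0.49 without asymptomatic mouse 4 (adjusted p = 0.33) and -0.64 without lymphoma mouse 5 (adjusted p = 0.0637). The node call of Stat5a was lost in 15 of 23 alternatives and those of Stat5b in 5 of 23 in spleen and 4 of 23 in node.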

How the data were processed

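Spleens and lymph nodes were profiled with the Affymetrix Mouse Gene 1.0 ST array. The deposited values are log2 levels, which the authors made with fRMA (frozen RMA) according to the design text of the series, which also names a linear model with surrogate variables; software versions and the genome build are not given in the sources used here. Signal over background was not examined, and the number of arrays limits the precision. Of 35557 probe sets, 35556 had values and 21789 had 1 gene symbol in the platform annotation. Symbols were updated through RefSeq (GRCm38.p6), and 1 probe set, that of highest mean, stood for each of 19938 genes, with no filter.

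All 30 arrays entered 1 fit with limma 3.58.1 (R 4.3.3) with 6 groups and 6 surrogate variables (number from 20 permutations, then 5 rounds of iterative re-weighting, computed in base R). The code was also run on data simulated from this same fit, which says nothing about how well the fit suits these arrays. A call means p under 0.05 after Benjamini-Hochberg adjustment over the 19938 genes. Spleen and node arrays with 1 mouse number come from 1 animal, per the labels; their deviations from the group means correlated at -0.0144 to 0.675 over 15 mice. Mice are separate animals. Between lymphoma and asymptomatic mice, same-numbered spleens had deviations correlated at 0.228 to 0.497 in 6 of 6 pairs. Same-numbered nodes had 0.0841 to 0.237, over 0.1 in 4 of 6. Numbers lie within batches and no differently numbered mice are compared here, so a pairing by number cannot be told from a shared batch. The fit with the mouse number as a block is therefore given as an alternative only. Igf2 got no test, since lymphoma arrays enter the fit.

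The members, gene lists, tests and alternatives were chosen with earlier results of these data known. Named were the measured members, the 10 genes most like Igf2 over 30 and over 12 arrays, and up to 5 members of each list with the smallest adjusted p, with others needed to describe a count or chosen after their values were seen. The alternatives were batch as a term, no or 2 surrogate variables, quantile normalization, only genes above the median mean level, mean of probe sets, neighbouring tissue as covariates, replicate blocks, single batches, each mouse left out and arrays with neighbouring tissue left out.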

Additional observations from a re-analysis of the deposited data

Results flagged for a closer look

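Of 24 groups of 6 arrays examined, 6 measured members in lymphoma and asymptomatic arrays of both tissues, 4 held an array far from the rest of its group by Dixon's test, and chance gives about 1 in 20 groups. Igf2r was highest in the node of lymphoma mouse 2 (8.31), against 6.94 to 7.33 in the other 5 lymphoma nodes. Igf1 was lowest in the node of asymptomatic mouse 1 (7.29), against 9.75 to 10.17 in the other 5 asymptomatic nodes. The same node was the lowest for Insr (8.86), against 9.26 to 9.46. Its stroma genes averaged 7.96, against 8.69 to 9.37 in the other asymptomatic nodes. Igf2r was lowest in the node of asymptomatic mouse 6 (8.15), against 8.61 to 8.85 in the others; that node carried pancreas genes at 7.35 over the median array. The part of these tissue genes was not tested.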

How the results depend on the processing

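Over 15 results of single members, 272 of 327 alternatives kept the direction and the side of the threshold, 34 lost the call, 12 gained one and 9 turned the sign; over 42 results of pathway genes, 682 of 937 kept both, 249 lost the call and 6 turned the sign. The measured Igf2 difference between lymphoma and asymptomatic mice ran from 1.75 to 3.19 in spleen and 1.75 to 3.02 in node as mice were left out. The members called between lymphoma and asymptomatic mice numbered 1 to 3 in spleen as mice were left out, and 1 in node with batch and neighbouring tissue levels as terms, against 3 and 3. Between asymptomatic and FVB/N spleens the 1 call became 0 with batch as a term, without surrogate variables, with 2 of them, with batch and tissue levels and with the mouse number as a replicate block, and was 0 to 1 as mice were left out. Lymphoma against FVB/N gave 2 calls in spleen with genes above the median mean level, against 1. As mice were left out it gave 0 to 1 in spleen and 1 to 2 in node. Within batch A Igf1 was called in spleen in place of Igf2r, and Igf1, Igf1r and Igf2r were called in node. Those fits called 4962 genes in spleen and 4051 in node. For node against spleen in asymptomatic mice the count of 0 became 3 with batch as a term, 2 without surrogate variables, 1 with genes above the median level, 2 with the mouse as a block and 3 within batch B. In FVB/N mice it became 1, 1, 2 and 1 under the first 4 of these, and 0 to 1 as mice were left out. For the difference between tissues it became 1 with batch as a term, without surrogate variables, with genes above the median level, with the mean of probe sets and with the mouse as a block, 2 within batch B, and 0 to 1 as mice were left out. The 1 agreement between organs (Igf2bp3) was 0 without its 2 farthest mice and 0 as each mouse was left out, which says nothing about its stability: the smallest p is 0.0167 with 5 mice, or 0.0833 adjusted for 1 relation of 5, and 0.0833 with 4.

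Turned signs were, for lymphoma against asymptomatic mice, Igf2bp3 at -0.08 in spleen and -0.04 in node within batch B and -0.25 in spleen without lymphoma mouse 2 (up to 1.21 without asymptomatic mouse 4), and Insr at -0.06 in spleen within batch A. In node Insr was -0.06 with batch as a term, without surrogate variables and with the mouse number as a block, and -0.24 within batch B. Igf2r against FVB/N spleens was 0.00 within batch A. Among pathway genes they were Grb10 (-0.20) and Irs1 (-0.60) in node within batch B, Ins2 (-0.12) and Arid3a (-0.07) in spleen within batch A, and Ins2 (-0.02) and Ghr (0.10) in node without the arrays that carried neighbouring tissue; the cause was not tested. With the mouse number as a block, the calls of Igf1, Igf2bp3, Ins2, Cdkn1c and Arid3a changed in lymphoma against asymptomatic spleens. No other call named in that comparison changed. In lymphoma against asymptomatic nodes the same block gave Igf2bp3 at 1.13 (limma adjusted p = 0.0192). FVB/N mice were all in batch A, so batch and state cannot be fully told apart there, and 3 FVB/N mice limit the precision of each comparison with them.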
